A study of Mus musculus with 18 samples.

Results

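PDGF-BB, a growth factor for smooth muscle cells, was given to mouse aortic smooth muscle cells with and without an siRNA against Itgav, and the effect of PDGF-BB differed between cells with and without it for 2981 genes. The quantity described here is the interaction of the treatments: the log2 effect of PDGF-BB in cells with Itgav siRNA minus the log2 effect of PDGF-BB in cells with scramble siRNA. It was computed for all genes that passed a low-count filter, 15832 of the 57180 in the deposited table. It uses 12 of the 18 libraries of the series, 3 in each of 4 groups: scramble siRNA unstimulated, scramble siRNA with PDGF-BB, Itgav siRNA unstimulated and Itgav siRNA with PDGF-BB. All groups are cultured smooth muscle cells from the thoracic aorta of C57BL/6 mice, and all had received an siRNA, the scramble siRNA being the control. The 6 libraries of cells given TGF-β enter only the estimate of the spread between replicates. No label gives the dose or time of PDGF-BB, the siRNA sequence or the age of the mice. Whether the 3 replicates of a group came from separate cultures is not labelled. The p-values therefore reflect variation among these libraries, and that variation may be technical. No other siRNA against Itgav is labelled, so loss of Itgav and other effects of this siRNA cannot be told apart.

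Itgav encodes the αV chain of a family of integrins, cell surface receptors that pair with β chains (β1, β3, β5, β6 or β8) and bind matrix proteins that carry an RGD sequence, such as vitronectin, fibronectin and osteopontin. Several αV integrins also bind latent TGF-β and can release it. PDGF-BB binds the receptors PDGFRα and PDGFRβ, signals through ERK and other kinases, and is known for driving smooth muscle cells to proliferate, migrate and lower their contractile genes. Integrins and growth factor receptors share parts of their signalling at focal adhesions, where the actin cytoskeleton is tied to the membrane. The interaction asks which parts of the PDGF-BB response differ when αV is depleted.

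Throughout, levels are CPM, counts scaled to the size of the library, in replicates 1, 2 and 3 of a group, effects are log2 fold changes, and an error after a log2 value is a standard error (SE). A positive interaction means that PDGF-BB moved the gene further up, or less far down, in siRNA cells. Calls were made at an adjusted p under 0.05 in edgeR's quasi-likelihood test with Benjamini-Hochberg adjustment over all genes tested, and "rose", "fell" and "changed" are used only of called effects. A called interaction was blunted where PDGF-BB had a called effect in scramble cells that was smaller in the same direction in siRNA cells (reduced) or no longer called there (lost). It was enlarged where both effects were called in the same direction and that in siRNA cells was larger, and reversed where both were called in opposite directions. It was siRNA only where PDGF-BB had a called effect in siRNA cells alone.

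The deposited counts of the 12 libraries totalled 17705072 to 21592916. Principal component 1 (66.2% of the variance) separated the siRNA from the scramble libraries and component 2 (23.7%) separated PDGF-BB from unstimulated libraries, with no overlap. Some libraries stood apart from their replicates. Scramble PDGF-BB replicate 1 lay at -14.2 on component 3, against -0.806 and -4.74 in the other replicates, and scramble unstimulated replicate 1 had low levels of interferon genes, given with those genes. Without both of these libraries 2482 interactions were called in place of 2981. Itgav siRNA PDGF-BB replicate 1 also lay apart on component 3, at 1.04 against 7.80 and 9.11 in the other replicates. Without it 3277 interactions were called. The closest replicates differed by a chi-square of 2.21 per degree of freedom, so no pair was as alike as counting noise would make it. Genes that overlap on opposite strands and near-identical copies are uncertain, since no source used here states the strand setting of the counting.

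Itgav itself (chr2:83724397-83806916, plus strand, GRCm38) checks the labels. Its level was 300.2, 326 and 323 CPM in unstimulated scramble cells and 307, 336 and 319 CPM in scramble cells with PDGF-BB. It was 14.8, 14.1 and 16.4 CPM in unstimulated siRNA cells and 19.1, 23.9 and 25.5 CPM in siRNA cells with PDGF-BB. Every siRNA library lay far below every scramble library, with 4.77% of the scramble level remaining without and 7.12% with PDGF-BB. PDGF-BB left Itgav at a log2 effect of 0.02 ± 0.07 in scramble cells and raised the remaining transcript by 0.60 ± 0.10 in siRNA cells, an interaction of 0.58 ± 0.12 (adjusted p = 0.0025). The depletion was therefore deep in both media but not equal, by a log2 effect of -4.39 ± 0.09 unstimulated and -3.81 ± 0.09 with PDGF-BB.

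PDGF-BB changed about as many genes with Itgav siRNA as without. In scramble cells 5714 genes were called (36.1% of those tested), 2676 up and 3038 down, and in siRNA cells 5766 (36.4%), 2719 up and 3047 down. These 2 effects share no library. The siRNA itself changed 8457 genes (53.4%) in unstimulated cells and 9394 (59.3%) with PDGF-BB. Both were called for 3239 genes, in the same direction for 2994 and in opposite directions for 245. Across the 15832 genes the effects had a Pearson r of 0.568 and a Spearman rho of 0.490, given as a description since genes are not independent replicates.

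The interaction was called for 2981 genes (18.8%), 1505 positive (9.51%) and 1476 negative (9.32%), and 5013 genes had an unadjusted p under 0.05. It was at least 2-fold for 260 of the called genes, 174 positive and 86 negative. Of the 5714 genes with a called effect in scramble cells, 3880 had no called interaction and 1834 had one. The largest class was blunted, with 1137 genes (7.18% of genes tested): 917 lost and 220 reduced, 546 of them rises and 591 falls. In 646 of the lost genes the estimate in siRNA cells had the other sign but was not called, so the class holds more than weaker effects in the same direction. Enlarged effects numbered 452 (2.85%), 207 rises and 245 falls. Reversed effects numbered 245 (1.55%), of which 85 were rises that became falls and 160 falls that became rises. A further 1023 genes (6.46%) had a called PDGF-BB effect in siRNA cells alone, 491 up and 532 down, and 124 called interactions had no called effect in either cell population.

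Class counts are descriptions, because the class of a gene and its effect in scramble cells use the same libraries and noise in those moves them in opposite directions. Without scramble PDGF-BB replicate 1 there were 734 blunted genes in place of 1137, and without scramble unstimulated replicate 3 there were 158 reversed genes in place of 245. Among the 887 genes that PDGF-BB changed at least 2-fold in scramble cells, 605 were called in the same direction in siRNA cells, 160 were blunted, 80 enlarged and 5 reversed, and 642 had no called interaction. Their median ratio of the log2 effect in siRNA cells to that in scramble cells was 0.792. These genes were selected by a large effect in scramble cells, which by itself lowers the ratio, so it does not measure a general weakening. Over all genes tested the standard deviation of the log2 effect was 0.645 in scramble cells and 0.654 in siRNA cells. On the linear CPM scale 2903 of the 2981 called interactions (97.4%) kept their sign and 78 did not.

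**Figure D1:**
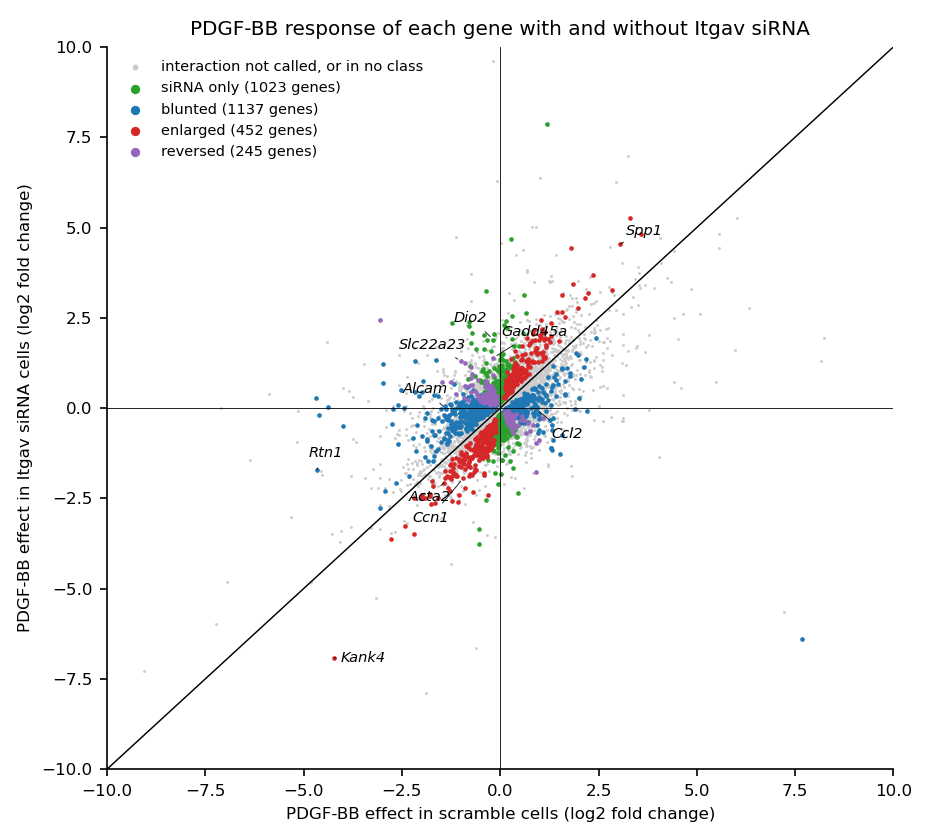
Effect of PDGF-BB on each of 15832 genes (log2 fold change) in scramble cells on the x axis and in Itgav siRNA cells on the y axis, with the line of equal effects. Points are coloured by class. Of the blunted genes (1137) the lost ones lie near the x axis and the reduced ones between it and the line. Enlarged genes (452) lie beyond the line, reversed genes (245) in the other quadrants and siRNA-only genes (1023) along the y axis. Grey points had no called interaction or no class.

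The interaction followed gene length. Genes were divided by length, the summed bases of all annotated exons with overlaps merged, into 5 groups of near-equal size. In group 1, the shortest (105 to 2259 bases), 70 interactions were positive and 359 negative, with a median of -0.14. In group 5, the longest (7305 to 123179 bases), 568 were positive and 177 negative, with a median of 0.11. The trend was steeper on the scramble side: the median PDGF-BB effect went from 0.09 in group 1 to -0.07 in group 5 in scramble cells and from -0.05 to 0.03 in siRNA cells. It also differed between replicates. The median level of group 5 minus that of group 1, each relative to the mean of all libraries, was -0.37, -0.12 and -0.22 in the scramble PDGF-BB libraries and -0.17, -0.03 and -0.05 in the unstimulated scramble libraries. The same difference was 0.04, 0.06 and 0.00 in unstimulated siRNA libraries and -0.02, 0.14 and 0.14 in those with PDGF-BB. Scramble PDGF-BB replicate 1 was the lowest of the 12 and scramble unstimulated replicate 1 the lowest of its group. With a smooth length and GC term for each library (known for 98.07% of genes tested), an alternative added after the data were seen, 2665 genes were called (16.8%), 1298 positive (8.2%) and 1367 negative (8.63%). Of the 2981 calls 2004 were made again with the same sign, and 28 had a value of the other sign, called or not. In that fit group 1 held 137 positive and 184 negative calls and group 5 held 331 and 393. The part of length in any single gene's interaction was not tested, and counts from this fit, called positive and negative with offsets, are given for each gene list.

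**Figure D2:**
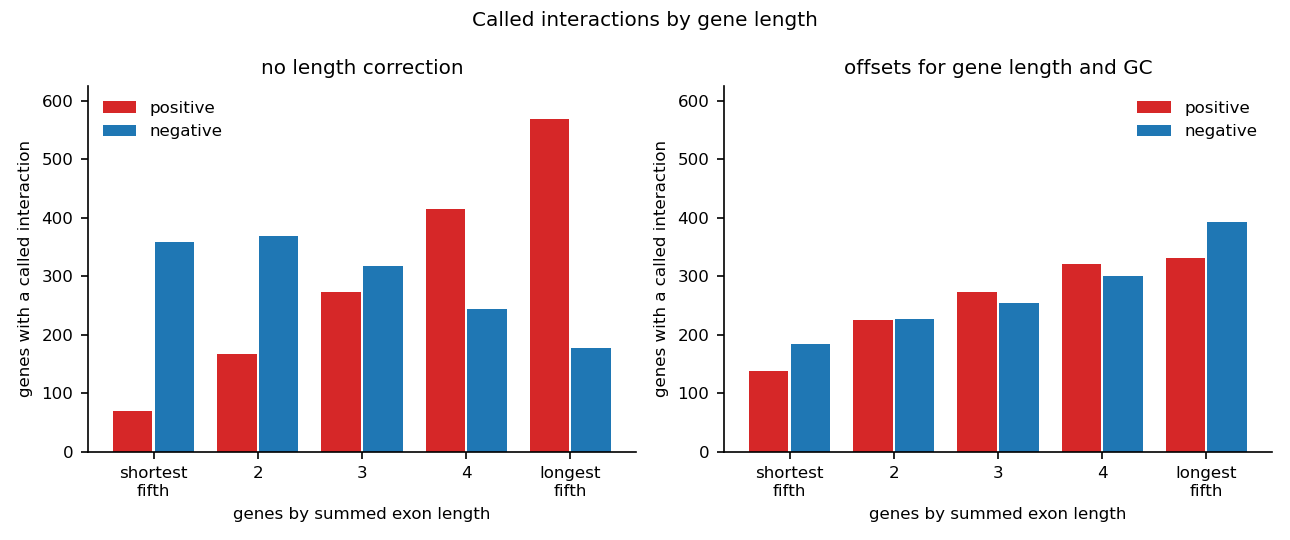
Number of called interactions, positive and negative, in 5 groups of genes by summed exon length, without (left) and with (right) length and GC offsets. Without offsets the positive calls climb from 70 in the shortest group to 568 in the longest and the negative calls drop from 359 to 177; with offsets the shortest group holds 137 and 184 and the longest 331 and 393.

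A part of the contractile genes fell further with PDGF-BB in siRNA cells. Of 24 tested members of a list of contractile smooth muscle genes, 8 had a called interaction (33.3%, against 18.8% of all genes) and all 8 were negative. Their median over the 24 was -0.21, against -0.01 over all genes. The 18.8% is the comparison for every list below, and only the interferon, G1/S and G2/M lists had smaller called shares. A larger share is thus not particular to any list. PDGF-BB lowered 16 of the 24 in scramble cells, against 19.2% of all genes, and 16 in siRNA cells. In bulk RNA, fewer cells of a type and less RNA per cell cannot be told apart. With length and GC offsets 8 were negative and 2 positive, and 1 was positive with no low-count filter, in DESeq2 and with the replicate number as a block.

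Acta2 (chr19:34241090-34255590, minus strand), smooth muscle α-actin, was at 1035, 1059.5 and 1099.8 CPM in unstimulated scramble cells and 379, 397 and 403 CPM with PDGF-BB. In siRNA cells it was at 518, 505 and 549.5 CPM unstimulated and 125, 121 and 128 CPM with PDGF-BB. The 4 groups did not overlap: PDGF-BB lowered Acta2 2.71-fold in scramble cells and 4.2-fold in siRNA cells, an interaction of -0.63 ± 0.06 (adjusted p = 1.6e-07). Tagln, which encodes the actin-binding protein transgelin, went from 729.9, 711 and 718 to 336, 320.4 and 343 CPM in scramble cells. In siRNA cells Tagln went from 273, 244 and 301 to 71.7, 71.3 and 77.2 CPM. All 3 siRNA libraries with PDGF-BB lay far under every other library, and the interaction was -0.78 ± 0.08 (adjusted p = 6e-07).

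Other called members were also negative. The interaction was -0.68 ± 0.12 for Myl9, a regulatory myosin light chain, and -1.07 ± 0.23 for Actg2, γ-actin of smooth muscle. It was -0.62 ± 0.07 for Lmod1, leiomodin, which nucleates actin filaments. These 3 falls were all enlarged. Smaller enlarged falls were those of Flna, filamin A, at -0.24 ± 0.05 and of Myl6, a myosin light chain, at -0.28 ± 0.07. Tpm2, a tropomyosin, was called in siRNA cells alone, at -0.49 with PDGF-BB. Myh11, the smooth muscle myosin heavy chain, was not called at -0.35 ± 0.18 (adjusted p = 0.21), nor was Cnn1, calponin 1, at -0.54 ± 0.22 (adjusted p = 0.092), although Cnn1 was called with all libraries in DESeq2 and with no low-count filter. It was also called when Itgav siRNA PDGF-BB replicate 3 or Itgav siRNA unstimulated replicate 2 was left out and when both doubted scramble libraries were. Cnn2, calponin 2, which is not on the list, had 1 of the 5 smallest p-values among negative interactions. It went from 435, 427 and 453 to 354, 341 and 351 CPM in scramble cells and from 304, 298 and 307 to 125, 129 and 117 CPM in siRNA cells, an interaction of -0.96 ± 0.06 (adjusted p = 4.6e-10).

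Genes known as targets of YAP and TEAD, transcriptional regulators that respond to cell shape and tension, gave some of the strongest negative interactions. Of 24 tested members 12 were called (50%, against 18.8% of all genes), 9 negative and 3 positive, with a median of -0.15. With length and GC offsets 12 were negative and 2 positive. PDGF-BB lowered 13 of the 24 in scramble cells and 14 in siRNA cells, against 19.2% of all genes in each.

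Ccn1, a secreted matricellular protein, was at 330.4, 341 and 342 CPM in unstimulated and 178, 173 and 178 CPM in PDGF-BB-treated scramble cells. With Itgav siRNA it was at 212, 196 and 211 CPM unstimulated and 54.6, 50.8 and 55.5 CPM with PDGF-BB. The fall was 1.92-fold without and 3.85-fold with the siRNA, an interaction of -1.0 ± 0.06 (adjusted p = 3.9e-10), with the siRNA PDGF-BB libraries clear of all others. Amotl2, angiomotin-like 2, an adaptor that binds YAP, went from 187, 183 and 181 to 110.3, 106 and 99.6 CPM in scramble cells. In siRNA cells Amotl2 went from 170.0, 152 and 163 to 48.6, 42.8 and 41.2 CPM, an interaction of -1.06 ± 0.08 (adjusted p = 5.2e-09). The unstimulated scramble and siRNA libraries of Amotl2 lay close together, so that most of the gap between the cell populations appeared with PDGF-BB. Wwc1, which encodes the Hippo pathway scaffold KIBRA, had an interaction of -1.15 ± 0.07 (adjusted p = 4.7e-10). It went from 129, 129 and 142 to 82.9, 79.0 and 82.6 CPM in scramble and from 93.6, 92.3 and 96.2 to 26.0, 26.8 and 25 CPM in siRNA cells.

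Further negative members were Ajuba, a LIM-domain scaffold, at -0.86, Gadd45b, a stress-response gene, at -0.69, Ankrd1, a cardiac ankyrin repeat protein, at -0.48, Axl, a receptor tyrosine kinase, at -0.40, Asap1 at -0.29 and Ccn2, connective tissue growth factor, at -0.21. Axl and Asap1 were blunted rises and not enlarged falls. The positive members were F3, tissue factor, at 0.92, Igfbp3, a binding protein of insulin-like growth factors, at 0.75 and Tead1 at 0.33. PDGF-BB raised Igfbp3 in both cell populations and further in siRNA cells, while F3 and Tead1 were reduced falls.

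Many contractile genes are known targets of serum response factor, which binds the CArG box, and YAP acts through TEAD, which binds GGAATG. The promoters of 4 genes that fell further are shown as examples, chosen after the search because each holds 1 of these motifs. The window of Wwc1 held neither. The windows are the 250 bases before the gene start, 5′ to 3′ on the gene's own strand, from RefSeq on GRCm38.p6. Capitals mark a CArG box in Cnn2 and GGAATG, or its reverse complement CATTCC, in the other 3. A CArG box was counted only as an exact CCWWWWWWGG, where W is A or T. The Acta2 window also holds ccctatatgg and ccttgtttgg, which each differ from that pattern in 1 letter and were not counted. A window without a counted CArG box may therefore hold a near match.
Acta2 (chr19:34255374-34255623, minus strand): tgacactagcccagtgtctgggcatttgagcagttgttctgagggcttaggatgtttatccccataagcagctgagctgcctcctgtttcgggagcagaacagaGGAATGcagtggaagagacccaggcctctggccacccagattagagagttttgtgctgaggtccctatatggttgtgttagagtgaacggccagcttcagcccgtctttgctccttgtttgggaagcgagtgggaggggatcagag
Ccn1 (chr3:145649986-145650235, minus strand): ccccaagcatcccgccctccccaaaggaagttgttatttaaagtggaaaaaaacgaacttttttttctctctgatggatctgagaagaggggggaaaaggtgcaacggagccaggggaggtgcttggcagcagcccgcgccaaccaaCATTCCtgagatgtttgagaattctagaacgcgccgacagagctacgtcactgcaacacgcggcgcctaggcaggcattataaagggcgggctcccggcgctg
Amotl2 (chr9:102717554-102717803, plus strand): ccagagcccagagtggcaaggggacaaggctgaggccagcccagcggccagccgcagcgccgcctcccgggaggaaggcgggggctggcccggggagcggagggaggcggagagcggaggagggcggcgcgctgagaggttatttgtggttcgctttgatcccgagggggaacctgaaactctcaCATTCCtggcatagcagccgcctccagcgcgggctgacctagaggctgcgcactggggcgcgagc
Cnn2 (chr10:79988350-79988599, plus strand): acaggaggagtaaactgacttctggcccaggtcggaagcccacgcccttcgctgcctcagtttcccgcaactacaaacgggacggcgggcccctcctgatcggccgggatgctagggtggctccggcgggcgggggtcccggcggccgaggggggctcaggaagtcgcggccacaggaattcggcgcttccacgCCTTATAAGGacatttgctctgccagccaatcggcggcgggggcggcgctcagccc

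Both strands of windows from 250 bases before to 50 bases after each start were searched, and 11202 of the genes tested had a window. GGAATG on either strand was found in 39 of 185 windows of enlarged falls (21.1%), in 17 of 159 of enlarged rises (10.7%), in 37 of 445 of blunted falls (8.31%) and in 69 of 425 of blunted rises (16.2%). In siRNA-only falls it was found in 47 of 418 windows (11.2%). The share was 12.3% over all genes tested and 14.6% over all 27025 windows of the table. A CArG box was found in 6 of 185 windows of enlarged falls (3.24%) and 13 of 418 of siRNA-only falls (3.11%), against 1.29% of genes tested and 1.57% of all windows. Among the lists, GGAATG was found in 8 of 19 contractile windows (42.1%) and 8 of 18 windows of YAP and TEAD targets (44.4%), and a CArG box in 3 of 19 contractile windows (15.8%) and 3 of 23 focal adhesion windows (13.0%). These matches describe the letters in the windows and are neither evidence of binding nor a cause of the changes.

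Focal adhesion genes gave 16 called interactions among 30 tested (53.3%, against 18.8% of all genes), 11 negative and 5 positive. The list median was -0.10, and 14 were negative and 5 positive with offsets. The largest negative member was Sorbs3, which encodes vinexin, a vinculin-binding adaptor. It went from 215, 203 and 205 to 184, 166 and 160.1 CPM in scramble cells and from 171, 188 and 179 to 86.5, 80.5 and 73.9 CPM in siRNA cells, an interaction of -0.87 ± 0.08 (adjusted p = 2.9e-07). Enlarged falls were also those of Zyx, zyxin, at -0.44, of Tns3, tensin 3, at -0.44 and of Parva, α-parvin, at -0.33. Pxn (paxillin, -0.30), Ilk (integrin-linked kinase, -0.34) and Bcar1 (p130Cas, -0.36) were called in siRNA cells alone.

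Nedd9, a scaffold of the same family as p130Cas, moved the other way. Its level was 68.8, 69.5 and 72.0 CPM in unstimulated scramble cells and 36.1, 35.4 and 36.6 CPM with PDGF-BB. The siRNA groups stood at 41.6, 38.3 and 39.1 CPM unstimulated and 39.8, 37.9 and 42.5 CPM with PDGF-BB. The siRNA groups overlapped each other and lay near the PDGF-BB-treated scramble libraries, so the PDGF-BB effect was -0.96 ± 0.05 without and 0.01 ± 0.05 with the siRNA (interaction 0.98 ± 0.08, adjusted p = 1.4e-08). Layn, layilin, a hyaluronan receptor that binds talin, gave an enlarged rise at 0.58. Lims1 (PINCH1, 0.40) and Crk (an adaptor, 0.35) were falls that became rises.

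The integrin subunits themselves had the largest share of called members among the 23 pathway lists, 13 of 18 (72.2%, against 18.8% of all genes). Of these, 10 were positive and 3 negative (9 and 3 with offsets), and the list median was 0.37. Itgav, the target, is 1 of the 10. Itgb8, a β chain that pairs only with αV, was at 2.61, 4.67 and 3.05 CPM in unstimulated scramble cells and 3.33, 3.19 and 3.56 CPM with PDGF-BB. It was at 21.7, 23.6 and 22.2 CPM in unstimulated siRNA cells and 40.4, 49.9 and 47.9 CPM with PDGF-BB. The scramble groups overlapped and every siRNA library lay above them, with an interaction of 1.05 ± 0.21 (adjusted p = 0.0014). Itgb3, the β chain of the vitronectin receptor, had an enlarged rise, from 32.4, 29.2 and 29.0 to 32.9, 41.6 and 35.7 CPM in scramble and from 51.9, 50.4 and 50.4 to 80.1, 87.7 and 83.3 CPM in siRNA cells (interaction 0.44 ± 0.09, adjusted p = 0.0019).

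Itgb5, another partner of αV, went down instead. It fell from 319, 328 and 326 to 225, 212 and 217 CPM in scramble cells and from 621, 592 and 614 to 287, 290.5 and 274 CPM in siRNA cells, an interaction of -0.53 ± 0.06 (adjusted p = 8.9e-07). Among α chains, Itga6, a laminin receptor chain, rose from 28.9, 30.3 and 29.1 to 35.7, 40.1 and 36.4 CPM in scramble and from 28.1, 29.0 and 27.5 to 57.2, 64.1 and 67.2 CPM in siRNA cells (interaction 0.81 ± 0.10, adjusted p = 1.2e-05). The unstimulated levels of Itga6 overlapped between the cell populations, and the levels with PDGF-BB did not. Itga5, the fibronectin receptor chain, had an enlarged rise at 0.48, as had Itga7 at 0.30 and Itga10 at 0.44. Itga2, a collagen receptor chain, was a fall that became a rise (-0.47 and 0.34, interaction 0.80). Itga11, another collagen receptor chain, fell from 37.0, 37.0 and 39.8 to 14.8, 15.3 and 14.7 CPM and, in siRNA cells, from 32.5, 28.4 and 31.8 to 8.90, 9.15 and 6.98 CPM, an interaction of -0.54 ± 0.10. Itgb1 was called at 0.18 ± 0.05 (adjusted p = 0.016), a call that was lost when any of 5 single libraries was left out (scramble PDGF-BB 1, scramble unstimulated 2 or 3, siRNA PDGF-BB 2 or 3).

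**Figure D3:**
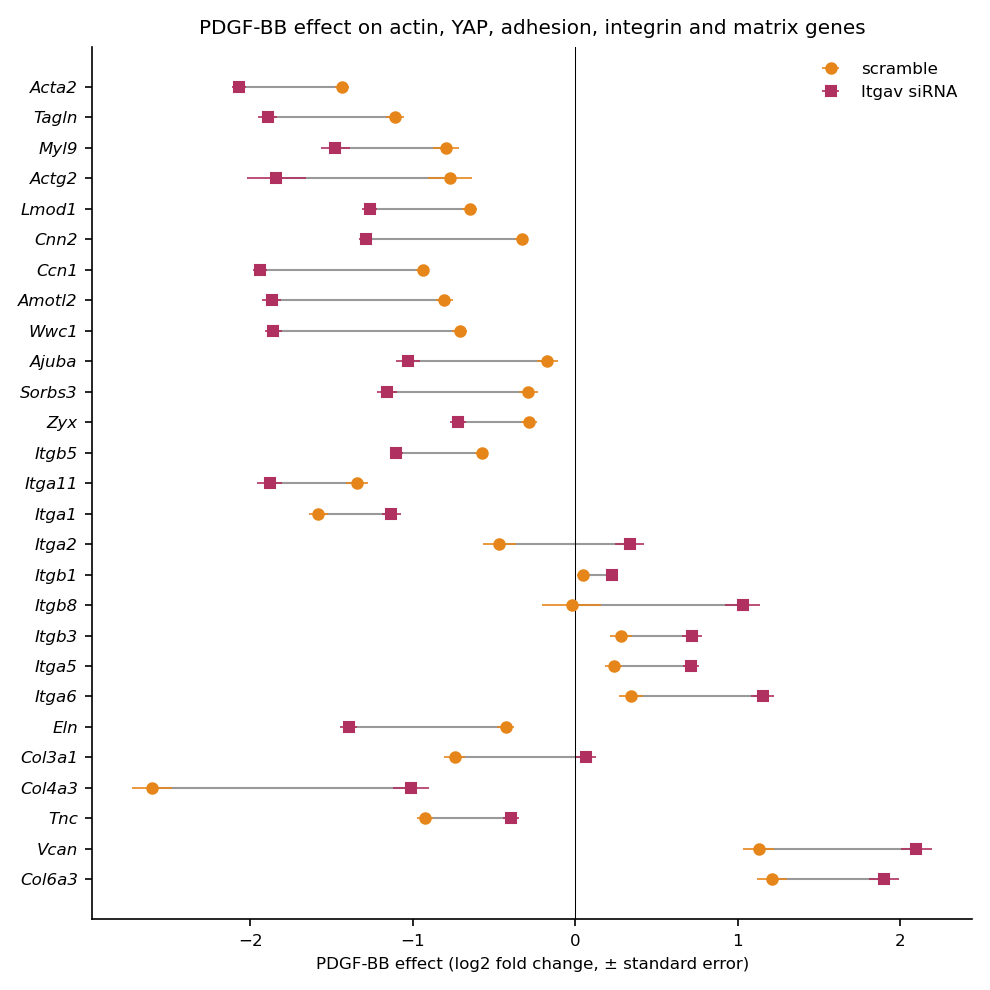
PDGF-BB effect (log2 fold change, bars are SE, 3 libraries per group) in scramble cells (orange circles) and Itgav siRNA cells (dark red squares) for 27 genes of the contractile, YAP and TEAD, adhesion, integrin and matrix groups. Squares lie further left than circles for Acta2, Tagln, Cnn2, Ccn1, Amotl2 and Eln, and further right for Vcan, Itgb8 and Itga6.

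Matrix genes leaned the other way from contractile genes. Of 43 tested members of an extracellular matrix list, 20 had a called interaction (46.5%, against 18.8% of all genes). The list median was 0.11, and 15 calls were positive and 5 negative (18 and 7 with offsets). Of the 20 calls, 10 were blunted, 7 enlarged and 2 reversed. The list's median PDGF-BB effect was -0.16 in scramble cells and 0.00 in siRNA cells.

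Eln, elastin, the main elastic fibre protein of the aorta, was the clearest exception. It was at 346, 364 and 346 CPM in unstimulated and 267, 266 and 252 CPM in PDGF-BB-treated scramble cells. In siRNA cells it was at 374, 407 and 416 CPM unstimulated and 137, 159 and 159 CPM with PDGF-BB. Unstimulated siRNA cells thus had the most Eln and siRNA cells with PDGF-BB the least, with no overlap between the latter and any other group. The fall was 1.35-fold without and 2.63-fold with the siRNA (interaction -0.97 ± 0.07, adjusted p = 5.2e-09), and the siRNA effect was 0.18 ± 0.05 in unstimulated cells and -0.79 ± 0.05 with PDGF-BB. Other elastic fibre genes with enlarged falls were Fbln5, fibulin 5, at -0.26 and Mfap5, a microfibril protein, at -0.31. Fbn1, fibrillin 1, and Emilin1 had positive interactions, of 0.35 and 0.47, so the elastic fibre genes did not move as a block.

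The collagen genes Col3a1 and Col4a3 gave blunted falls. Col3a1, a fibrillar collagen of the vessel wall, went from 348, 371 and 359 to 198, 235 and 212 CPM in scramble cells. With Itgav siRNA it was at 554, 535 and 519.5 CPM unstimulated and 521, 609 and 554 CPM with PDGF-BB, with overlapping groups. The effect of PDGF-BB was -0.74 ± 0.06 and 0.07 ± 0.06, an interaction of 0.81 ± 0.09 (adjusted p = 1.5e-06). Col4a3, a basement membrane collagen chain, fell from 36.2, 41.6 and 43.5 to 6.36, 6.49 and 7.03 CPM in scramble and from 29.2, 31.8 and 29.9 to 12.7, 16.3 and 16.2 CPM in siRNA cells, an interaction of 1.6 ± 0.17 (adjusted p = 1e-06). Thbs2, thrombospondin 2, had a lost fall at 0.64. Col8a1 (0.45) and Nid1, nidogen 1 (0.62), were falls that became rises. Col1a1 and Fn1 were not called, at 0.21 ± 0.08 (adjusted p = 0.072) and 0.27 ± 0.11 (adjusted p = 0.084), but both were called with the replicate number as a block (adjusted p = 0.0092 and 0.012), with length and GC offsets, with no low-count filter and when Itgav siRNA PDGF-BB replicate 1 or scramble PDGF-BB replicate 2 was left out, and Col1a1 also without scramble unstimulated replicate 1.

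Of the matrix genes that PDGF-BB raised, Vcan and Col6a3 rose further in siRNA cells. Vcan, the proteoglycan versican, went from 46.5, 51.2 and 50.1 to 101, 114 and 108 CPM in scramble and from 47.7, 46.8 and 38.7 to 167, 205 and 200.5 CPM in siRNA cells (interaction 0.97 ± 0.13, adjusted p = 3.1e-05). Col6a3, a chain of microfibrillar collagen VI, went from 30.3, 34.4 and 31.3 to 69.6, 82.3 and 70.9 CPM in scramble and from 31.3, 33.4 and 29.6 to 101, 125 and 127 CPM in siRNA cells (interaction 0.69 ± 0.13, adjusted p = 0.00083). For both, unstimulated levels overlapped between the cell populations and levels with PDGF-BB did not. Tnc, tenascin C, and Col12a1 had reduced falls, with interactions of 0.53 and 0.93, and Fmod, fibromodulin, of 0.28.

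Spp1 (chr5:104435118-104441050, plus strand), which encodes osteopontin, a secreted ligand of αV integrins, had an enlarged rise. It was at 74.6, 73.5 and 80.0 CPM in unstimulated scramble cells and 621, 578 and 695 CPM with PDGF-BB. It was at 101, 86.0 and 91.0 CPM in unstimulated siRNA cells and 2197, 2143 and 2138 CPM with PDGF-BB. The unstimulated groups were close but did not overlap, and the siRNA PDGF-BB libraries were each more than 3 times any scramble library. The rise was 8.3-fold without and 23.3-fold with the siRNA, an interaction of 1.49 ± 0.10 (adjusted p = 1.5e-09).

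Modulated smooth muscle genes mark cells that have left the contractile state. Of 18 tested, 12 were called (66.7%), 6 in each direction with and without offsets, with a median of -0.04. Of these 12 called genes 10 were blunted, 1 enlarged (Spp1) and 1 reversed (Vim, vimentin, -0.28). Over all genes, 38.1% of called interactions were blunted. Mgp, matrix Gla protein, an inhibitor of calcification, went from 198, 186 and 186 to 820.0, 703 and 725 CPM in scramble cells and from 699, 679 and 693 to 1956, 1922 and 1894 CPM in siRNA cells, an interaction of -0.50 ± 0.08. Its class is a reduced rise because the log2 effect was smaller in siRNA cells, 1.48 against 1.98, although the difference in CPM was larger there. Lgals3 (galectin 3, -0.49), Vcam1 (an adhesion molecule, -0.47) and Cd44 (a hyaluronan receptor, -0.19) were reduced rises too. Tnfrsf11b, which encodes osteoprotegerin, was a reduced fall, from 78.0, 99.6 and 93.8 to 25.7, 29.0 and 29.2 CPM in scramble and from 84.7, 78.6 and 78.2 to 60.9, 66.1 and 61.7 CPM in siRNA cells (interaction 1.34 ± 0.12, adjusted p = 5.3e-08).

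Osteochondrogenic genes, which share Spp1, Mgp and Sox9 with that list, had 9 called members of 16 (56.2%), 5 positive and 4 negative (6 and 4 with offsets), with a median of 0.27. Sox9, a chondrogenic transcription factor, went from 67.9, 63.7 and 70.3 to 45, 45.6 and 45 CPM in scramble cells. In siRNA cells Sox9 was at 85.3, 83.3 and 86.1 CPM unstimulated and 89.4, 90.2 and 85.9 CPM with PDGF-BB. The siRNA groups overlapped and lay above all scramble libraries, an interaction of 0.64 ± 0.07 (adjusted p = 7.7e-07). Bmp4 had an enlarged fall at -0.59, and Col2a1 another at -0.52.

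Alcam had the smallest p among lost falls. Alcam (chr16:52248996-52454074, minus strand), an immunoglobulin-family cell adhesion molecule, went from 156, 175 and 158 to 58.0, 66.0 and 64.3 CPM in scramble cells. In siRNA cells it was at 108, 110.5 and 119 CPM unstimulated and 102, 114 and 114 CPM with PDGF-BB, with overlapping groups. The PDGF-BB effect was -1.38 ± 0.06 without and -0.03 ± 0.06 with the siRNA, an interaction of 1.34 ± 0.09 (adjusted p = 1.1e-09). Rtn1, reticulon 1, fell from 11.9, 11.3 and 12.4 to 0.353, 0.721 and 0.324 CPM in scramble and from 3.33, 2.21 and 2.23 to 0.489, 1.20 and 0.639 CPM in siRNA cells, a reduced fall with an interaction of 2.96 ± 0.44 on low counts. Kcne4, a potassium channel subunit, was a lost fall at 1.65.

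Among blunted rises, Ccl2, a chemokine that attracts monocytes, went from 24.3, 22.5 and 24.7 to 43.1, 47.2 and 43.3 CPM in scramble cells. With Itgav siRNA it was at 66.2, 60.7 and 57.1 CPM unstimulated and 64.1, 65.0 and 52.0 CPM with PDGF-BB. The siRNA groups overlapped and lay above all scramble libraries, so the rise was 0.90 ± 0.09 without and -0.02 ± 0.08 with the siRNA (interaction -0.92 ± 0.12, adjusted p = 1.6e-05). The 4 largest blunted rises by the naming rule were Sco2, a copper chaperone of cytochrome oxidase, at -1.27, Tmem171 at -1.25, Shfl at -1.09 and Apcdd1, a Wnt inhibitor, at -1.09. The call of Shfl was lost without scramble PDGF-BB replicate 1.

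Reversed effects were led by Slc22a23 (chr13:34179158-34345182, minus strand), an orphan organic ion transporter with the smallest p of all positive interactions. It fell from 22.4, 22.8 and 24.8 to 11.4, 12.5 and 11.5 CPM in scramble cells. With Itgav siRNA it rose from 8.96, 8.79 and 8.40 to 20.1, 21.4 and 22.8 CPM. The 2 high groups, unstimulated scramble and PDGF-BB-treated siRNA cells, overlapped, and the other 2 lay well below them, with effects of -0.99 and 1.30 and an interaction of 2.29 ± 0.11 (adjusted p = 2.3e-11). Kirrel3, an adhesion molecule of the nephrin-like family, fell from 21.6, 24.1 and 24.2 to 8.94, 8.80 and 7.17 CPM and rose, in siRNA cells, from 11.4, 8.54 and 10 to 15.9, 16.3 and 16.9 CPM (interaction 2.2 ± 0.14).

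Gadd45a, a stress and DNA damage response gene, went from 25.1, 23.7 and 24.9 to 21.8, 21.8 and 21.6 CPM in scramble cells and rose in siRNA cells from 33.4, 28.8 and 29.9 to 79.3, 83.1 and 79.0 CPM. Its small fall in scramble cells (-0.18 ± 0.06) was called, which makes the class reversed, and the interaction was 1.57 ± 0.08 (adjusted p = 7.6e-11). Tgfbr1, the type I TGF-β receptor, was at 71.3, 79.0 and 73.2 CPM in unstimulated and 57.7, 62.1 and 61.4 CPM in PDGF-BB-treated scramble cells. It was at 112, 123 and 119.9 CPM in unstimulated siRNA cells and 161, 174 and 176 CPM with PDGF-BB, an interaction of 0.83 ± 0.08 (adjusted p = 1.6e-07). Lrp4 (-0.71 and 0.94) and Palmd, palmdelphin (-0.75 and 0.82), were other falls that became rises.

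Of rises that became falls, Ccl7, another monocyte chemokine, went from 3.99, 3.81 and 3.92 to 9.90, 7.41 and 7.86 CPM in scramble cells and from 60.8, 48.4 and 56.1 to 47.4, 51.2 and 36.8 CPM in siRNA cells. The siRNA groups of Ccl7 overlapped each other and lay far above the scramble groups, and its interaction was -1.38 ± 0.20. Siglecg, a sialic acid-binding receptor, went from 3.21, 2.28 and 2.61 to 4.65, 5.66 and 5.92 CPM and, in siRNA cells, from 2.95, 2.21 and 2.18 to 1.37, 1.56 and 1.01 CPM (interaction -1.88 ± 0.31). The 2 other large reversals of this kind were Rn18s-rs5, a ribosomal RNA repeat, at -2.67 ± 0.48, and Lars2, mitochondrial leucyl-tRNA synthetase, at -1.87 ± 0.36. Both spread widely within groups: Rn18s-rs5 was at 3218, 4169 and 1328 CPM in the scramble PDGF-BB libraries and 1570.2, 4129 and 5588 CPM in the unstimulated siRNA libraries, and Lars2 at 205, 221 and 90.7 and 110.1, 176 and 250 CPM in the same libraries. The library with the least Rn18s-rs5 in each of these 2 groups also had the least Lars2. Whether ribosomal reads contribute to the Lars2 values was not tested.

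**Figure D4:**
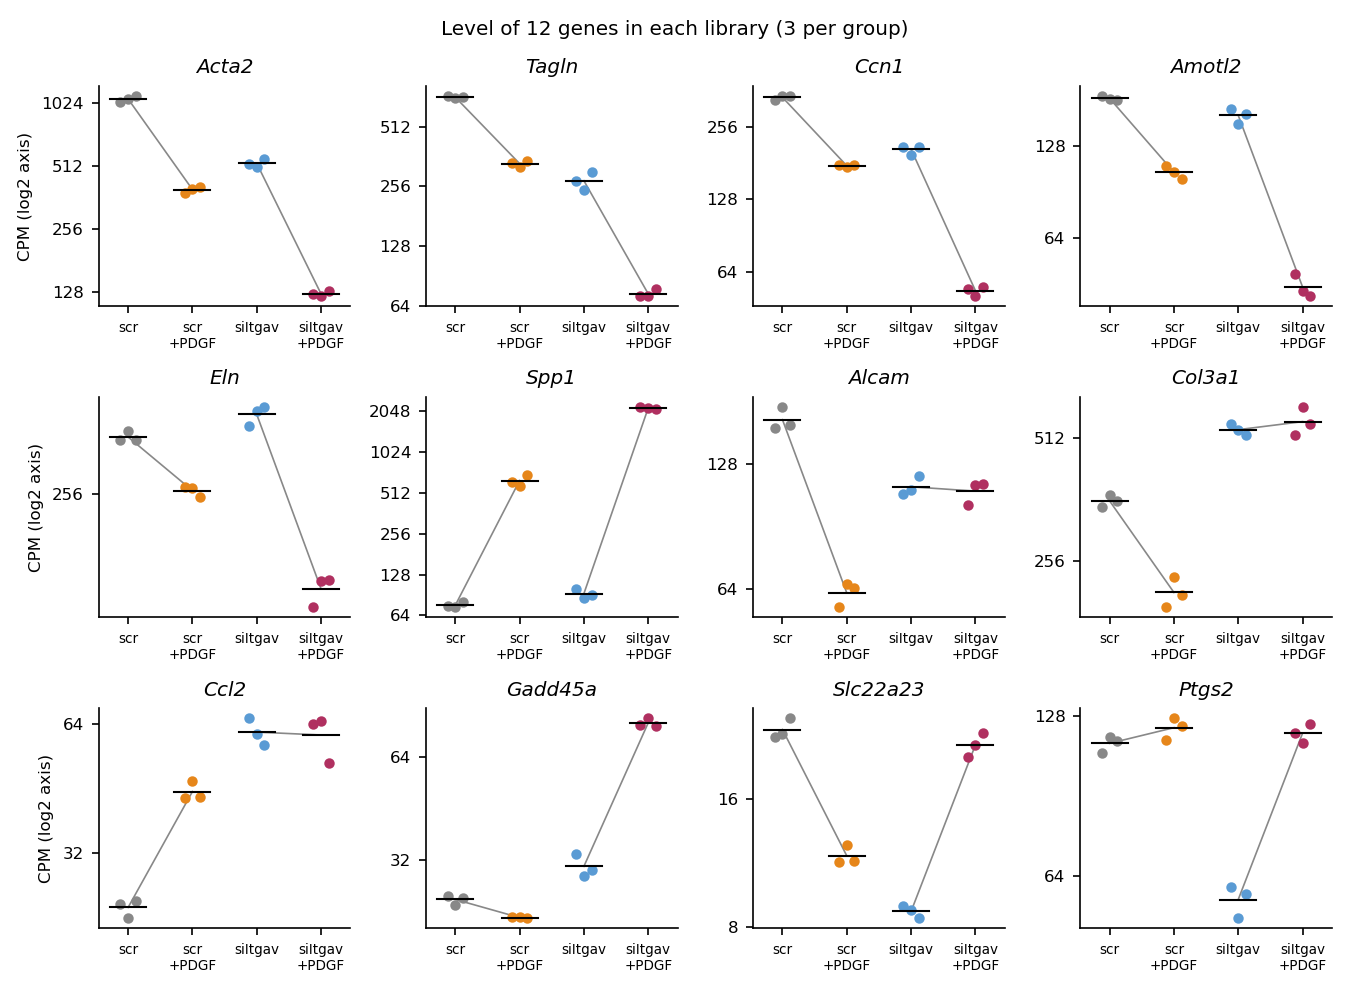
Level of 12 genes in each library (CPM, log2 axis), with a bar at the mean of each group of 3 libraries, for unstimulated and PDGF-BB-treated cells with scramble or Itgav siRNA. The fall of Acta2, Tagln, Ccn1, Amotl2 and Eln is deeper and the rise of Spp1 higher in siRNA cells, Alcam and Col3a1 are level between the siRNA groups, and Slc22a23 and Gadd45a rise with PDGF-BB in siRNA cells alone.

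Further genes had effects that were enlarged or called in siRNA cells alone. Cdh3, P-cadherin, was at 10.9, 11.6 and 11.9 CPM in unstimulated and 9.59, 8.65 and 9.53 CPM in PDGF-BB-treated scramble cells. It was at 10, 12.4 and 11.3 CPM in unstimulated siRNA cells and 2.05, 2.30 and 2.02 CPM with PDGF-BB, clear of every other group (interaction -2.09 ± 0.16, adjusted p = 1.4e-08). Angptl7, an angiopoietin-like secreted protein, fell from 90.6, 101 and 103 to 58.7, 59.7 and 62.6 CPM in scramble and from 188, 184 and 194 to 40.3, 32.3 and 41.3 CPM in siRNA cells, where its unstimulated level was the highest of all groups (interaction -1.61 ± 0.10). Smpd3, a neutral sphingomyelinase, was called in siRNA cells alone, at 68.4, 65.6 and 74.4 CPM unstimulated and 28.4, 30.6 and 29.3 CPM with PDGF-BB, while the scramble libraries ran from 29.1 to 33.7 CPM in both media (interaction -1.18 ± 0.09, adjusted p = 1.4e-08).

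Large enlarged rises were those of Atp6v0d2, a subunit of the vacuolar proton pump, at 2.62, and Edil3, a secreted αV integrin ligand, at 1.58. The rule also named Mcpt8 (1.95) and Olr1 (1.6), whose calls were lost when any of 4 and any of 8 single libraries was left out. Kank4 was named among the enlarged falls, but was at 0.0978, 0 and 0 CPM in siRNA cells with PDGF-BB, and its call was lost without replicate 2 or replicate 3 of that group. Dio2, which activates thyroid hormone, was called in siRNA cells alone, at 2.04, 1.46 and 1.81 CPM unstimulated and 7.24, 5.80 and 6.76 CPM with PDGF-BB, against 3.25, 5.12 and 4.65 and 3.74, 3.76 and 3.98 CPM in scramble cells (interaction 2.07 ± 0.24). Star, a cholesterol transporter of mitochondria, had an interaction of 1.45, and Ptch1, the hedgehog receptor, of -1.28, both from siRNA-only effects. The siRNA-only calls of Scin (1.97) and Pde1c (1.48) were less stable: that of Scin was lost without scramble unstimulated replicate 3 and that of Pde1c without scramble unstimulated replicate 2 or scramble PDGF-BB replicate 1.

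ERK feedback genes, which report signalling directly downstream of growth factor receptors, had about as many called rises with the siRNA as without. Of 33 ERK feedback genes and targets, PDGF-BB raised 26 in scramble cells and 27 in siRNA cells, against 16.9% and 17.2% of all genes, and the median effect was 0.64 in each. Interactions were called for 11 of 33 (33.3%), 6 positive and 5 negative (7 and 3 with offsets), with a median of -0.01. Dusp6, an ERK phosphatase, rose from 29.6, 33.9 and 31.3 to 65.1, 63.9 and 63.1 CPM in scramble cells and from 26.2, 28.9 and 24.1 to 58.8, 58.2 and 58.3 CPM in siRNA cells, and its interaction was not called (0.13 ± 0.09, adjusted p = 0.38). Ccnd1, cyclin D1, rose from 2322, 2326 and 2339 to 3668, 3906 and 3719 CPM and from 1371, 1406 and 1332 to 2201, 2369.7 and 2299 CPM. The siRNA lowered Ccnd1 in both media, and its interaction was not called either (0.05 ± 0.05, adjusted p = 0.54).

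The called members split. Spry4, a feedback inhibitor of receptor tyrosine kinases, had an enlarged rise from 9.76, 10.4 and 9.83 to 16.4, 18.5 and 17.1 CPM in scramble and from 10.6, 8.84 and 8.40 to 26.1, 27.0 and 27.6 CPM in siRNA cells (interaction 0.74 ± 0.14). Etv1 and Etv5, ETS transcription factors, had enlarged rises at 0.66 and 0.30, and Ier3 at 0.61. Egr1, an immediate early transcription factor, was already higher in unstimulated siRNA cells and had a smaller log2 rise there. It went from 22.7, 26.5 and 21.7 to 55.3, 53.5 and 49.9 CPM in scramble and from 51.9, 47.6 and 46.7 to 76.6, 79.6 and 76.7 CPM in siRNA cells (interaction -0.49 ± 0.11). The rise of Egr1 in CPM was similar in both cell populations. Hmga1, a chromatin architectural protein, rose from 83.7, 76.3 and 78.8 to 455, 421 and 419.7 CPM and from 88.5, 88.2 and 86.6 to 359.6, 331 and 326 CPM (interaction -0.49 ± 0.07). Dusp5 was a lost rise at -0.63 and Fos a lost fall at 0.82.

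Of 7 PDGF ligands and receptors tested 2 were called, both positive (3 positive and 0 negative with offsets). Pdgfrb, the main PDGF-BB receptor, fell from 518, 513 and 509.7 to 298, 318 and 293 CPM in scramble and from 511, 480.2 and 481 to 326, 339 and 334 CPM in siRNA cells, an interaction of 0.20 ± 0.05 (adjusted p = 0.01). The unstimulated libraries overlapped between cell populations and the siRNA effect there was not called (-0.07 ± 0.04). Pdgfc was a lost fall at 0.52, and Pdgfra was not called at 0.25 ± 0.14 (adjusted p = 0.25).

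TGF-β and SMAD targets had 12 called members of 28 (42.9%, against 18.8% of all genes), 6 positive and 6 negative. The list median was -0.01, and 7 were positive and 2 negative with offsets. Id1, Id2 and Id3, inhibitors of helix-loop-helix factors that BMP signalling induces, had enlarged falls, at -0.29, -0.56 and -0.35. Not all of these kept a negative call with offsets, since the list then held 2. Skil, a repressor of SMAD proteins that TGF-β induces, was a lost fall, from 46.4, 47.5 and 49.1 to 21.1, 26.8 and 25.6 CPM in scramble cells and from 31.5, 31.7 and 32.9 to 27.4, 28.2 and 32.7 CPM in siRNA cells (interaction 0.84 ± 0.12). Bhlhe40, a transcriptional repressor, had an enlarged rise at 0.71, and Inhba, a subunit of activin, was called in siRNA cells alone at 0.53.

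Interferon response genes were far higher with the siRNA, and the number of called interactions turned on 1 library and on the low-count filter. Their median siRNA effect in unstimulated cells was 4.15 over 41 genes, and their median level was 8.25, 20.5 and 18.4 CPM in unstimulated scramble cells and 182, 151 and 181 CPM in unstimulated siRNA cells. With PDGF-BB it was 8.33, 6.85 and 6.94 CPM in scramble and 161, 171 and 117 CPM in siRNA cells. Scramble unstimulated replicate 1 was below both other replicates of its group for 38 of the 41 genes. With all libraries 1 interaction of 41 was called (2.44%), that of Ifi27l2a, at 1.30 ± 0.23 (adjusted p = 0.00044), and the median was 0.28. With offsets 1 was called as well, also positive. Without that library 22 were called, all positive, with a median of 0.52, and 29 of the 41 were lower with PDGF-BB in scramble cells, in place of 19. Over all genes that fit called 3178 interactions, 1605 positive and 1573 negative, and 5372 PDGF-BB effects in scramble cells. With all libraries PDGF-BB lowered 19.2% of all genes in scramble cells. With all libraries and all low-count genes kept 24 members of the list were called, 22 positive and 2 negative, and 3155 genes in all.

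The size of this shift can be seen in single genes. Isg15, a ubiquitin-like protein, was at 8.25, 37.9 and 35.4 CPM in unstimulated and 14.1, 13.6 and 16.2 CPM in PDGF-BB-treated scramble cells. It was at 427, 395 and 469 CPM in unstimulated and 416, 416 and 299 CPM in PDGF-BB-treated siRNA cells. Its interaction was 0.69 ± 0.39 (adjusted p = 0.24) with all libraries and 1.13 ± 0.19 (adjusted p = 0.00025) without scramble unstimulated replicate 1. Ifit1, which binds foreign RNA, was at 8.66, 49.8 and 44.7 CPM in unstimulated scramble cells, and its interaction was 0.51 ± 0.45 with all libraries and 0.98 ± 0.24 (adjusted p = 0.006) without that replicate. The core letters GAAANNGAA of the interferon-stimulated response element were found in 18 of 28 windows of the list (64.3%), against 7.11% of genes tested and 8.57% of all windows. Antigen presentation genes had 3 called of 13 (23.1%), near the 18.8% of all genes, 1 positive and 2 negative, and with offsets 1 was called, which was negative. The call of Psmb10, an immunoproteasome subunit, at -0.78 was lost in 10 alternatives. B2m, the light chain of MHC class I, was not called at -0.03 ± 0.10.

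Inflammatory genes split evenly, with 12 called of 28 (42.9%), 6 in each direction (8 positive and 5 negative with offsets), and a median of -0.21. Ptgs2, cyclooxygenase 2, was at 109, 117 and 115 CPM in unstimulated and 116, 127 and 123 CPM in PDGF-BB-treated scramble cells. It was at 61.1, 53.4 and 59.2 CPM in unstimulated siRNA cells and 119, 114 and 124 CPM with PDGF-BB. The siRNA thus lowered Ptgs2 by 0.97 in unstimulated cells, the groups with PDGF-BB overlapped, and the interaction was 0.94 ± 0.08 (adjusted p = 6.3e-08). Cxcl12, a chemokine that acts on CXCR4, had an enlarged fall, from 3587, 3609 and 3575 to 2295, 2310.0 and 2348 CPM in scramble and from 5650.2, 5585 and 5594 to 2689.5, 2655 and 2650.3 CPM in siRNA cells (interaction -0.44 ± 0.04). Csf1, the macrophage growth factor, had a reduced fall, from 1358, 1419 and 1418 to 664, 673 and 647 CPM and from 1049.6, 1031 and 1019 to 635, 666 and 617 CPM (interaction 0.39 ± 0.05). Il6 was a reduced fall at 0.83. Tnfaip3, an inhibitor of NF-κB, was called in siRNA cells alone at -0.83.

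Few G1/S genes had a called interaction, and the share of G2/M genes was near that of all genes. Of 28 DNA replication and G1/S genes 1 was called (3.57%, against 18.8% of all genes), Ccne1, cyclin E1, at -0.47, with a median of 0.01, and 1 positive and 2 negative with offsets. Of 28 G2/M and mitosis genes 5 were called (17.9%), all positive, with a median of 0.08, and 3 positive and 1 negative with offsets. PDGF-BB lowered 23 of these 28 in scramble cells and 14 in siRNA cells, against 19.2% of all genes in each, and raised 1 in siRNA cells. Cdk1, the mitotic kinase, fell from 81.8, 75.3 and 86.4 to 56.8, 55.6 and 60.0 CPM in scramble and from 55.4, 56.1 and 53.3 to 42.3, 37.1 and 38.6 CPM in siRNA cells, and its interaction was not called (0.01 ± 0.08). Hmmr, a hyaluronan and spindle protein, went from 58.5, 64.9 and 66.9 to 49.1, 49.1 and 48.3 CPM in scramble cells and from 53.4, 58.0 and 45.5 to 52.4, 50.0 and 53.7 CPM in siRNA cells, a lost fall (interaction 0.37 ± 0.10) that was not called with offsets. The number of called G2/M members was 2 without scramble unstimulated replicate 3 or without Itgav siRNA PDGF-BB replicate 3. Mki67 was not called at -0.11 ± 0.09 (adjusted p = 0.45), nor was Klf4, a factor linked to smooth muscle modulation, at -0.01 ± 0.06.

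Oxidative phosphorylation genes leaned negative. PDGF-BB raised 9 of 17 in scramble cells and 2 in siRNA cells, against 16.9% and 17.2% of all genes. Interactions were called for 5 (29.4%, against 18.8% of all genes), all lost rises, and the list median was -0.13. With offsets 5 were called as well, all negative, and 4 of them were the same genes, but the list median was -0.05. Ndufb8, a complex I subunit, went from 68.2, 65.2 and 62.8 to 88.7, 75.0 and 81.7 CPM in scramble and from 57.4, 57.4 and 59.2 to 54.2, 52.7 and 55.1 CPM in siRNA cells (interaction -0.43 ± 0.08, adjusted p = 0.00074). Further lost rises were those of Ndufv1 (-0.42), Uqcrc1 (-0.38) and Cox4i1 (-0.33), of complexes I, III and IV. Genes of this list have short summed exon lengths (median 2313 bases, against 4195 over all genes). Without offsets the median interaction of all genes was -0.14 in length group 1 and -0.08 in length group 2. The part of length in this list was not tested.

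Cholesterol synthesis had 10 called of 23 (43.5%), 7 negative and 3 positive, but 3 negative and 1 positive with offsets and 6 in all without scramble unstimulated replicate 2, without Itgav siRNA PDGF-BB replicate 3 or without both first scramble libraries. Fdps, farnesyl diphosphate synthase, was a lost rise, from 158, 150.3 and 157 to 193, 183 and 193 CPM in scramble and from 99.6, 105 and 105 to 89.5, 93.6 and 102 CPM in siRNA cells (interaction -0.41 ± 0.07). ATF4 and endoplasmic reticulum stress genes had 10 called of 28 (35.7%), 7 negative and 3 positive (6 and 5 with offsets), among them Phgdh, the first enzyme of serine synthesis, at -0.68, Slc7a5, an amino acid transporter, at -0.45 and Mthfd2, a mitochondrial folate enzyme, at -0.43. These 3 were called in siRNA cells alone. Dnajb9, a chaperone, was reversed at 0.50.

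Hypoxia and glycolysis genes had 10 called of 27 (37%), 6 positive and 4 negative (9 and 3 with offsets). Vegfa, the endothelial growth factor, was a lost fall, from 52.0, 56.6 and 56.6 to 38.5, 42.6 and 37.0 CPM in scramble and from 51.7, 49.6 and 52.5 to 51.8, 58.1 and 53 CPM in siRNA cells, where the groups overlapped (interaction 0.57 ± 0.10). Adm, adrenomedullin, had an enlarged fall at -0.93, and Ero1a, an oxidase of the endoplasmic reticulum, was called in siRNA cells alone at 0.52. NRF2 and xenobiotic genes had 8 called of 18 (44.4%), 5 positive and 3 negative (6 and 3 with offsets), with a median of -0.02. Among the positive members were Nqo1, a quinone reductase, at 0.83 and the glutathione enzymes Gclc and Gclm at 0.57 and 0.58. Aldh1a1 was a negative member, at -0.55. The p53 targets had 8 called of 20 (40%), 5 positive and 3 negative (6 and 4 with offsets), with Trp53inp1 a fall that became a rise at 0.60 and Aen a rise that became a fall at -0.39.

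Hyaluronan and proteoglycan genes had 9 called of 17 (52.9%), 6 positive and 3 negative (5 and 3 with offsets). Xylt1, which starts glycosaminoglycan chains, and Chst11, a chondroitin sulfotransferase, were called in siRNA cells alone, at 1.37 and 1.03. Chst15, another chondroitin sulfotransferase, was a rise that became a fall at -1.0, and Cemip, which degrades hyaluronan, had an enlarged fall at -0.78. Matrix proteases and inhibitors had 9 called of 23 (39.1%), 6 positive and 3 negative (6 and 5 with offsets), with Adamts4, an aggrecanase, at 1.36 and Ctsk, cathepsin K, a collagen- and elastin-degrading protease, at 1.0, both from effects called in siRNA cells alone. Mmp3, stromelysin, was not called at -0.08 ± 0.31, and neither was Serpinb2 at -1.13 ± 0.41 (adjusted p = 0.062) except without Itgav siRNA unstimulated replicate 3 and in 4 other alternatives.

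**Figure D5:**
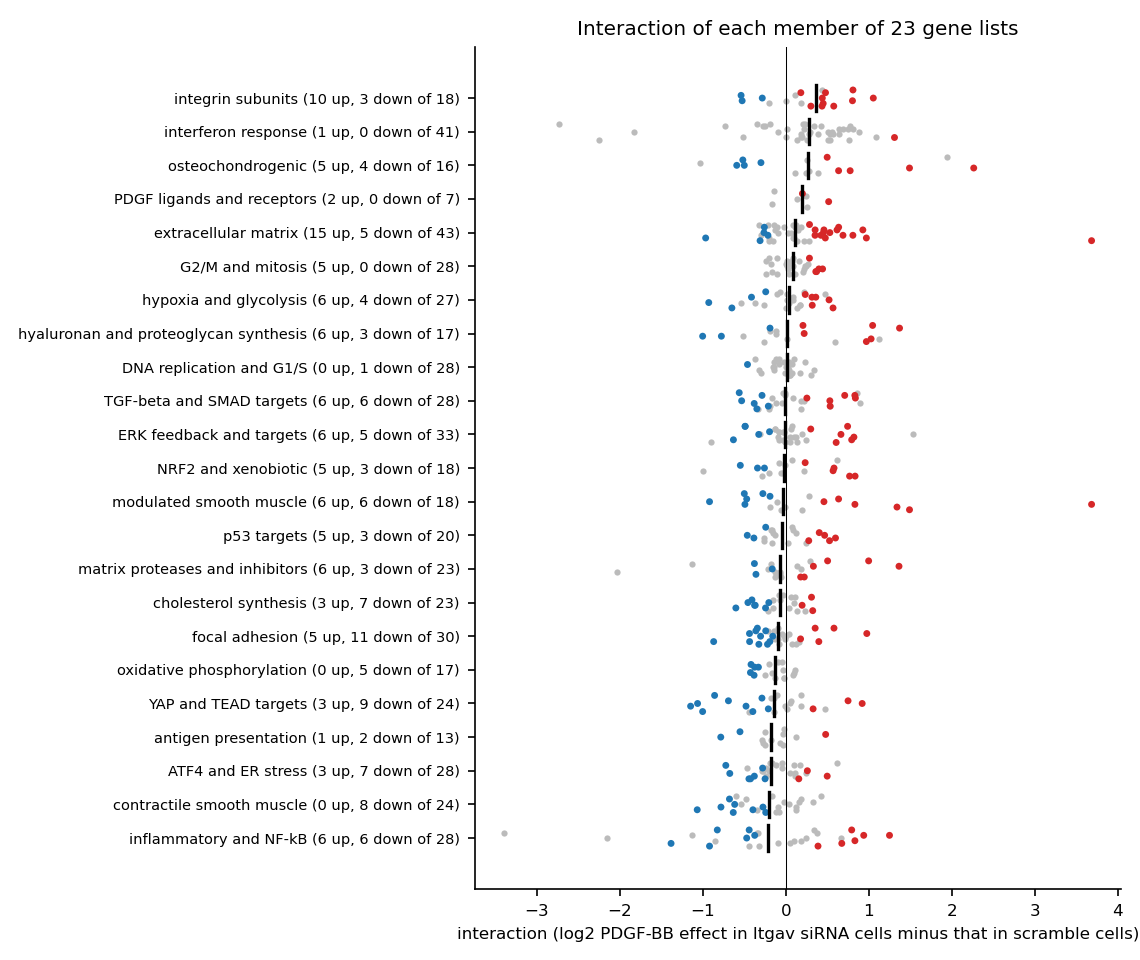
Interaction (log2) of every tested member of 23 gene lists, one row per list, with called members in red (positive) or blue (negative), others in grey, and a black bar at the list median. Contractile and oxidative phosphorylation genes have called members on the negative side alone, integrin subunits and matrix genes lean positive, and interferon genes have 1 called member and a wide spread.

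Markers of smooth muscle summed to 2087 to 2138 CPM in unstimulated and 959 to 988 CPM in PDGF-BB-treated scramble cells, and to 994 to 1114 and 376 to 385 CPM in siRNA cells, in step with the contractile genes, which they share. Lymphocyte and erythroid markers were at or near 0, with sums of at most 0.479 and 0.416 CPM, and Cd3e and Cd8a had no count. Endothelial markers summed to 86.2 to 143 CPM and macrophage markers to 17.7 to 27.2 CPM over the 12 libraries, and none of the 10 endothelial and 5 macrophage markers tested had a called interaction. Adventitial fibroblast markers summed to 1221 to 1294 and 1447 to 1536 CPM in scramble cells and to 1540 to 1609 and 1626 to 1824 CPM in siRNA cells, and mesothelial markers to 155 to 166, 194 to 219, 90.5 to 93.2 and 81.6 to 90.0 CPM in the same order. Called interactions among these markers were those of Lum, lumican, at 3.68 on levels of at most 1.61 CPM, of the mesothelial genes Upk1b (-0.78) and Upk3b (-0.58), of Fabp4 (0.60) and of S100b (0.64). The part of other cell types in the gene results was not tested.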

How the data were processed

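The submitters' processing notes name HISAT2 2.2.1, StringTie 2.1.6 and the mm10 build. The authors deposited estimated counts per gene, of which 76.2% of values above 0 were whole, and these expected counts were rounded. A single edgeR 4.0.16 fit held all 18 libraries, with 6 group means, TMM factors (0.925 to 1.07) and filterByExpr at a minimum count of 10, which kept at least 99.91% of each library's counts and left 12 residual degrees of freedom and a biological coefficient of variation of 6.01%. SE is the log2 value divided by the square root of F. CPM uses TMM-scaled totals.

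The members, lists, threshold and alternatives were chosen with earlier results of these data known. The naming rule takes Itgav and a panel of 22 genes, the 5 genes of smallest p in each direction, the 4 largest interactions per class and direction with a group mean of at least 5 CPM and an ordinary symbol, and, from lists with 3 or more called members, up to 4 of smallest p. Other genes were named after their values were seen. The pathway lists were contractile, modulated, ERK, PDGF, extracellular matrix, proteases, TGF-β, integrin, focal adhesion, YAP and TEAD, inflammatory, interferon, antigen presentation, cholesterol, G1/S, G2/M, ATF4, hypoxia, p53, osteochondrogenic, hyaluronan, NRF2 and oxidative phosphorylation genes. Markers of 10 cell types were listed as well.

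Coordinates and lengths are from GENCODE M21 and promoters from RefSeq, both on GRCm38, while the authors' annotation release is not given in the sources used here. The length and GC fit uses natural splines with 4 degrees of freedom in each. Alternatives were dropping the filter, filtering at 1 CPM, DESeq2 and its size factors, a block for the replicate number, the 12 libraries alone, an adjusted p under 0.01, and leaving out each library. The scripts were tested on simulated data. Software was DESeq2 1.42.0 and limma 3.58.1 in R 4.3.3, and matplotlib 3.10.9, numpy 2.4.6 and pandas 2.3.3 in Python 3.11.15. Some genes that the naming rule takes are not reported here.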

Additional observations from a re-analysis of the deposited data

Results flagged for a closer look

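The effect of PDGF-BB differed between scramble and Itgav siRNA cells for 2981 genes by the test of the difference itself (edgeR, adjusted p under 0.05). Among genes with an ordinary symbol and a group mean of at least 5 CPM, 8 are named whose PDGF-BB effects were called in opposite directions in the 2 cell populations, the 4 largest interactions in each direction. Slc22a23 (2.29), Kirrel3 (2.2), Lrp4 (1.66) and Palmd (1.58) fell in scramble cells and rose in siRNA cells, and Rn18s-rs5 (-2.67), Siglecg (-1.88), Lars2 (-1.87) and Ccl7 (-1.38) did the opposite, each value being the log2 interaction. Rn18s-rs5 and Lars2 varied widely among replicates of a group, and the unstimulated and PDGF-BB-treated siRNA libraries of Ccl7 overlapped.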

How the results depend on the processing

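No named gene with a called interaction changed sign under an alternative. Over all genes, 28 of the 2981 calls took the other sign with length and GC offsets. The offsets also turned the longest genes from 568 positive and 177 negative calls to 331 and 393, and the calls over all genes from 1505 and 1476 to 1298 and 1367. The count of called interactions was 2981, and it was 3155 with no low-count filter, 3095 at a mean of at least 1 CPM, 2953 with DESeq2 size factors, 3030 in DESeq2, 2747 from the 12 libraries alone, 2665 with length and GC offsets and 2482 without the first library of both scramble groups. At an adjusted p under 0.01 it was 1483 (814 positive and 669 negative), with 534 blunted, 252 enlarged, 85 reversed and 544 siRNA-only genes. Leaving out 1 library gave 2138 to 3454 interactions (1079 to 1682 positive, 1056 to 1772 negative), 734 to 1407 blunted, 337 to 457 enlarged, 158 to 328 reversed and 690 to 1162 siRNA-only genes. Called list members numbered 160 to 222, against 192. PDGF-BB effects numbered 4657 to 5741 in scramble and 4887 to 6139 in siRNA cells, and siRNA effects 7732 to 8770 unstimulated and 8679 to 9460 with PDGF-BB. The named genes kept their call in 2582 of their alternatives, lost it in 60 and gained it in 25. The replicate numbers were not taken to pair the libraries, since not every same-numbered pair of the 4 groups had a correlation over 0.1, although siRNA with scramble PDGF-BB libraries did (0.4317, 0.2581 and 0.1133). Over 18 pairs the correlation of their deviations from the group means ran from -0.0794 to 0.4317, 8 pairs were over 0.1, and 7 of 12 libraries correlated best with a library of their own number. Among the named genes the block changed only the calls of Col1a1 and Fn1, which it added. With the replicate block 3349 interactions were called, and 2841 with the block and the length and GC offsets. Limits are 3 libraries per group, 2 scramble libraries and Itgav siRNA PDGF-BB replicate 1 that stood apart, and a length trend that differed between libraries. Missing information on cultures, dose and time is a further limit. Genes at low counts such as Kank4, Lum and Rtn1 have imprecise fold changes.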
